A study of Homo sapiens with 6 samples.

Results

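The genes followed here encode the proteins that unhook crosslinks between DNA strands, repair the resulting breaks by homologous recombination, or copy past damaged bases. They were 43 genes chosen by name from the Fanconi anemia (FA) pathway, homologous recombination and translesion synthesis. A gene was kept if it had at least 10 counts in at least 3 of the 6 libraries. All 43 met this rule, out of 62754 genes in the table, and all 43 were among the 19874 genes tested.

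RNA was sequenced from HK-2, an established line of human proximal tubule cells, and every library came from cells given Cisplatin. In 3 libraries the cells had been transfected with a negative control siRNA (siNC), and in 3 with siRNA against NAT10 (siNAT10), an RNA and protein acetyltransferase. The labels give no dose or time of Cisplatin. In the methods of the paper, 20 μM for 24 hours was the condition taken for later work on these cells, without a statement on these libraries. No library of untreated cells was analysed here, so each difference below is between the siRNAs under the drug and none is a response to the drug. The question was which transcripts change when NAT10 is reduced in Cisplatin-treated tubular cells. Total counts were 19321665, 21602988 and 19464027 in the siNC libraries and 20793709, 21531774 and 25192736 in the siNAT10 libraries. Levels are given in CPM, the count of a gene scaled to the size of its library. The labels do not say whether libraries of a group came from separate cultures, so p-values measure only the spread between these libraries, which may be technical.

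Cisplatin links purine bases of DNA, mostly within a strand and less often across both strands. A crosslink across strands blocks the replication fork. The FA core complex then attaches ubiquitin to the FANCD2 and FANCI pair, nucleases cut around the lesion, translesion polymerases fill the gap, and homologous recombination restores the broken sister. Proximal tubule cells take up Cisplatin from the blood and are the part of the kidney that it injures most.

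NAT10 checked the labels. Its level was 75.8, 71.4 and 73.2 CPM in the siNC libraries and 41.3, 40.5 and 42.4 CPM in the siNAT10 libraries. The 3 siNAT10 libraries lay below all siNC libraries (log2 fold change -0.82 ± 0.0426 SE, adjusted p = 2.79e-15 by the edgeR quasi-likelihood test with Benjamini-Hochberg adjustment over all tested genes, n = 3 per group). The labelled cell type was compared with its markers. Of 10 proximal tubule markers, LRP2, CUBN, SLC34A1, SLC22A6, ANPEP, MME and HNF4A were at 0 or under 0.5 CPM in every library, and AQP1 reached at most 1.26 CPM. GGT1 (25.3 to 33.3 CPM) and SLC5A2 (8.29 to 11.6 CPM) were present. The list summed to 43.1 to 44.9 CPM in siNC and 38.9 to 42.0 CPM in siNAT10, while of the 2 that were present GGT1 was lower (-0.28, adjusted p = 9.92e-05) and SLC5A2 higher (0.31, adjusted p = 0.0036). The epithelial markers KRT8 (1428 to 1468 CPM), KRT18, PAX8 and EPCAM were present, and CDH1 was at most 0.106 CPM. Most genes that define a working proximal tubule were therefore absent or nearly so from these cells. All 4 endothelial markers were under 0.3 CPM, while some markers of other cells were present. The leukocyte list summed to 208, 197 and 215 CPM in siNC and 287, 265 and 268 CPM in siNAT10. Nearly all of it was CD68, a lysosomal protein made by many cells, while PTPRC was at most 1.32 CPM and CD3E and ITGAM at most 0.411 CPM. CD68 was called higher in siNAT10 (0.40, adjusted p = 7.97e-10), as was PTPRC at its low level (0.96, adjusted p = 0.0411). The fibroblast list, mostly COL1A1 (up to 15.4 CPM) and LUM (up to 13.7 CPM), summed to 21.4 to 22.9 CPM in siNC and 22.9 to 29.2 CPM in siNAT10. The podocyte list, nearly all PODXL, summed to 5.96 to 6.85 CPM and 8.11 to 10.1 CPM. The part of these shifts in the results for the 43 genes was not tested. In bulk RNA, fewer cells making a transcript and less of it per cell cannot be told apart.

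Of the 43 genes, 20 passed an adjusted p of 0.05 (46.5%), against 44.1% of all genes tested. The higher genes in siNAT10 were 11 (25.6%, against 21.8% of all genes) and the lower ones 9 (20.9%, against 22.3%). The share of members that changed was thus near that of the transcriptome, and both directions were present. The median log2 fold change of the members was 0.05, and that of all tested genes 0.01. In 24 members the 3 libraries of each group did not overlap (55.8%, against 51.4% of all genes), 13 of them above and 11 below the siNC libraries. Among the 3671 tested genes whose mean CPM lay between the quartiles of the members, 60.9% were called. Members and other listed genes with a level outside this band are not matched to that share. With library totals in place of TMM scaling, 16 members were higher (37.2%) and 7 lower (16.3%), against 25.4% and 19.1% of all tested genes, whose median log2 fold change then rose to 0.04. By edgeR, no member (0 of 43) passed a log2 fold change of 1 in size, against 2.33% of all genes that did so at an adjusted p of 0.05. The member with the most extreme change, RAD50, ranged from 0.62 to 0.70 over all alternatives, DESeq2 and limma voom included.

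**Figure D1:**
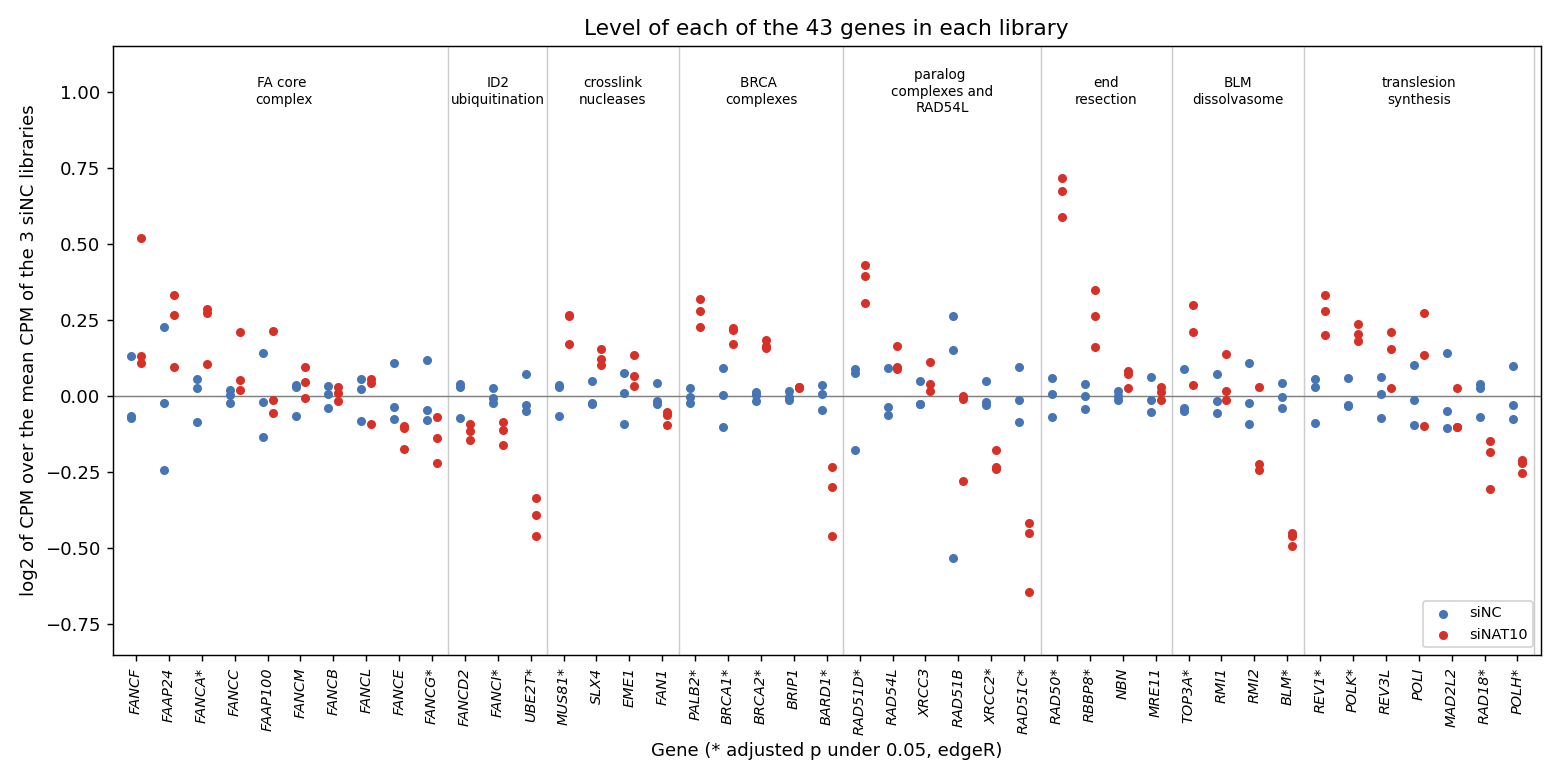
Each dot is a library, siNC in blue and siNAT10 in red, and the vertical axis is the log2 of the CPM over the mean of the 3 siNC libraries, with the genes in order of their role. RAD50 stood highest and RAD51C lowest among the means of the siNAT10 libraries, and 20 genes marked by an asterisk passed an adjusted p of 0.05.

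**Figure D2:**
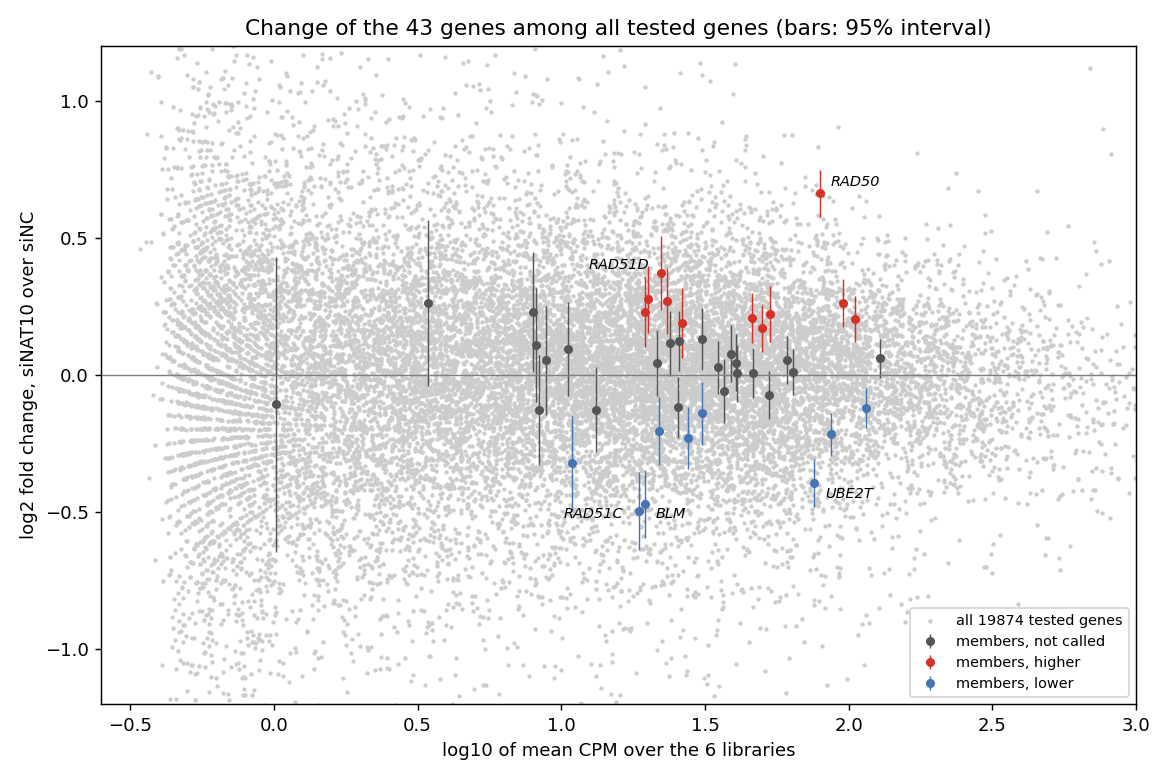
The horizontal axis is the log10 of the mean CPM over 6 libraries and the vertical axis the log2 fold change of siNAT10 over siNC, with 95% intervals for the 43 genes and every tested gene within the axes in grey (genes outside these axes are not drawn). The members lay within the cloud of all genes, with RAD50 (0.66) the highest of the 43.

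The FA core complex is the ubiquitin ligase that marks FANCD2 and FANCI. Of its 10 members here, 1 was higher, 1 was lower and 8 did not pass (20% called, against 44.1% of all tested genes and 60.9% of those at the level of the members), and their median log2 fold change was 0.05. The last share is not matched to this group. FANCF, FAAP24, FAAP100, FANCC and FANCE, at means of 3.45 to 13.2 CPM, lay below that band, where fewer counts make a call less likely. FANCA (53.2 CPM) lay above it. FANCA, which builds the complex together with FANCG, was at 51.1, 46.3 and 50.001 CPM in the siNC libraries and 59.3, 59.8 and 52.9 CPM in the siNAT10 libraries. All siNAT10 libraries lay above all siNC libraries (log2 fold change 0.22 ± 0.0498 SE, adjusted p = 5.49e-04). Of its exon bases, 2302 of 9736 are shared with ZNF276 on the other strand, which was also higher (0.27, adjusted p = 6.67e-04), and whether the counting used strand is not given in the sources used here. FANCG, its partner, was at 35.1, 30.6 and 31.3 CPM in the siNC libraries and 30.8, 27.8 and 29.4 CPM in the siNAT10 libraries. The groups overlapped slightly, since siNAT10 replicate 1 exceeded siNC replicate 2 (log2 fold change -0.14 ± 0.0564 SE, adjusted p = 0.0454). This call was lost without siNC replicate 1 (adjusted p = 0.313), siNAT10 replicate 2 (0.211) or siNAT10 replicate 3 (0.0843), and also with library totals, no filter, DESeq2 or limma voom. The log2 fold change shrank to -0.08 without siNC replicate 1, and to -0.10 without siNAT10 replicate 2 or with library totals. It was -0.13 with no filter, and stayed at -0.14 without siNAT10 replicate 3, by DESeq2 and by limma voom. FAAP24, which holds the complex on DNA with FANCM, was at 8.55, 7.19 and 6.18 CPM in the siNC libraries and 8.79, 9.20 and 7.81 CPM in the siNAT10 libraries. The groups overlapped, since siNC replicate 1 lay above siNAT10 replicate 3 (log2 fold change 0.23 ± 0.107 SE, adjusted p = 0.081). Without siNC replicate 1 the adjusted p was 0.0167, without siNAT10 replicate 3 it was 0.0355, and with library totals 0.0432. FAAP24 passed under no other setting. With 1 library left out, its log2 fold change ranged from 0.12 to 0.35 and its adjusted p reached 0.405.

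The catalytic arm of the complex is formed by FANCL, the ligase itself, with FANCB and FAAP100. FANCL was at 40.7 ± 1.98 CPM in siNC and 40.8 ± 2.27 CPM in siNAT10 (SD, n = 3), FANCB at 46.4 and 46.6 CPM, and FAAP100 at 8.69 and 9.01 CPM. None of these passed, and their 95% intervals of the log2 fold change ran from -0.10 to 0.11, -0.08 to 0.10 and -0.14 to 0.25. FANCL shares 452 of 2412 exon bases with VRK2 on the other strand, which was lower (-0.36). FANCC, FANCE and FANCF form the arm that receives the substrate. Their log2 fold changes were 0.10, -0.13 and 0.26, with adjusted p of 0.38, 0.183 and 0.155. FANCF had 3.13 and 3.76 CPM, so its interval was wide, from -0.04 to 0.57. FANCM, the translocase that recognises the stalled fork, was at 21.2 ± 0.829 CPM in siNC and 21.8 ± 0.768 CPM in siNAT10 (SD, n = 3) and did not pass (0.04, adjusted p = 0.582).

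In the step that attaches ubiquitin, 2 of 3 genes were lower in siNAT10 (66.7%, against 22.3% of all tested genes and 29.3% of those at the level of the members). UBE2T and FANCI lay above that band of levels, at means of 75.9 and 115 CPM, so the last share is not matched to them. UBE2T is the enzyme that works with FANCL to attach ubiquitin. It was at 90.7, 84.5 and 83.4 CPM in the siNC libraries and 68.3, 62.7 and 65.8 CPM in the siNAT10 libraries. Every siNAT10 library was below every siNC library, at 76.1% of the siNC mean (log2 fold change -0.39 ± 0.0421 SE, adjusted p = 8.66e-09). FANCI, a subunit of the clamp on DNA, was at 118, 122 and 119 CPM in the siNC libraries and 107, 113 and 111 CPM in the siNAT10 libraries. The groups did not overlap, though the change was small (log2 fold change -0.12 ± 0.0356 SE, adjusted p = 0.00698), and with library totals it no longer passed (adjusted p = 0.0657). FANCD2, its partner, was at 25.1, 26.95 and 27.2 CPM in the siNC libraries and 23.9, 24.8 and 24.4 CPM in the siNAT10 libraries. All siNAT10 libraries were again below all siNC libraries, but the test was not passed (log2 fold change -0.12 ± 0.0546 SE, adjusted p = 0.083), except without siNC replicate 1 (adjusted p = 0.0481). The count ratio of FANCI to FANCD2 within a library, which needs no scaling, was 4.54 ± 0.1503 in siNC and 4.53 ± 0.0395 in siNAT10 (SD, n = 3).

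Crosslink nucleases cut the DNA on both sides of the lesion. MUS81, which cuts branched DNA together with EME1, was at 17.2, 18.5 and 18.4 CPM in the siNC libraries and 21.6, 21.6 and 20.3 CPM in the siNAT10 libraries. All 3 siNAT10 libraries were above the siNC libraries (log2 fold change 0.23 ± 0.0617 SE, adjusted p = 0.00308). SLX4, the scaffold that brings nucleases to the lesion, was at 24.2, 25.4 and 24.1 CPM in the siNC libraries and 26.4, 26.7 and 27.3 CPM in the siNAT10 libraries. Its groups did not overlap either, and it passed only with library totals (log2 fold change 0.13 ± 0.0535 SE, adjusted p = 0.0582; adjusted p = 0.0163 with totals). FAN1, a nuclease that binds ubiquitinated FANCD2, was at 53.4, 55.6 and 53.1 CPM in the siNC libraries and 51.7, 52.1 and 50.6 CPM in the siNAT10 libraries. It lay lower in all 3 siNAT10 libraries by a small amount that did not pass (log2 fold change -0.07 ± 0.0423 SE, adjusted p = 0.175). EME1 was at 37.9 ± 2.17 CPM in siNC and 40.002 ± 1.46 CPM in siNAT10 (SD, n = 3) and did not pass (0.08, adjusted p = 0.217), and the ratio of MUS81 to EME1 within a library overlapped between the groups, at 0.477 ± 0.0430 and 0.530 ± 0.0252. MUS81 shares 759 of 5476 exon bases with CFL1 and EME1 541 of 3294 with LRRC59, both on the other strand and both with more counts than the member, so these counts are uncertain. CFL1 was not called (-0.05) and LRRC59 was lower (-0.23).

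The BRCA complexes carry broken ends towards recombination, and of their 5 genes 3 were called higher and 1 lower (80%, against 44.1% of all tested genes and 60.9% of those at the level of the members). BRCA1, the ligase that directs break repair, was at 104, 97.95 and 91.1 CPM in the siNC libraries and 110.2, 114 and 114 CPM in the siNAT10 libraries. The siNAT10 libraries all exceeded the siNC libraries (log2 fold change 0.21 ± 0.0409 SE, adjusted p = 1.38e-04). PALB2, the bridge from BRCA1 to BRCA2, was at 18.5, 17.8 and 18.1 CPM in the siNC libraries and 22.7, 21.2 and 22.01 CPM in the siNAT10 libraries. Its groups were well apart (log2 fold change 0.28 ± 0.0599 SE, adjusted p = 3.81e-04). BRCA2, which acts after PALB2 in recombination, was at 46.9997, 46.4 and 47.2 CPM in the siNC libraries and 52.6, 52.3 and 53.3 CPM in the siNAT10 libraries. Its libraries were tight within each group, and siNAT10 was above siNC in all of them (log2 fold change 0.17 ± 0.0423 SE, adjusted p = 0.00151). BARD1, the obligate partner of BRCA1 in the ligase, went the other way. It was at 12.1 ± 0.35 CPM in siNC and 9.68 ± 0.77 CPM in siNAT10 (SD, n = 3), lower in all 3 siNAT10 libraries (log2 fold change -0.32 ± 0.0829 SE, adjusted p = 0.00218). The ratio of BRCA1 to BARD1 counts was 8.54, 8.32 and 7.31 in the siNC libraries and 12.5, 11.5 and 11.1 in the siNAT10 libraries. The groups of ratios did not overlap, and their means were 8.06 and 11.7. BRIP1, a helicase that binds BRCA1, was at 34.7 ± 0.342 CPM in siNC and 35.4 ± 0.0368 CPM in siNAT10 (SD, n = 3) and did not pass (0.03, adjusted p = 0.661), although its groups did not overlap. A long noncoding gene that shares 120 of 9187 exon bases and the strand with BRCA1, ENSG00000267002, was lower (-0.54, adjusted p = 2.37e-10), so its counts did not move with those of BRCA1.

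RAD51B, RAD51C, RAD51D and XRCC2 form a complex that acts in recombination, and RAD51C also forms a pair with XRCC3. The members of these complexes did not change alike. RAD51C, which is in both complexes, was at 21.7, 20.6 and 23.4 CPM in the siNC libraries and 14.01, 16.4 and 16.02 CPM in the siNAT10 libraries. All siNAT10 libraries were below all siNC libraries, at 71.0% of siNC by the fitted fold change, and replicate 1 was the lowest (log2 fold change -0.49 ± 0.069 SE, adjusted p = 8.74e-07). RAD51D was at 17.1, 20.4 and 20.6 CPM in the siNC libraries and 25.4, 26.1 and 23.9 CPM in the siNAT10 libraries. It was higher in every siNAT10 library (log2 fold change 0.37 ± 0.0654 SE, adjusted p = 2.76e-05). XRCC2, which binds RAD51D, was at 96.4, 91.2 and 91.7 CPM in the siNC libraries and 79.2, 78.8 and 82.3 CPM in the siNAT10 libraries. It was lower in all siNAT10 libraries (log2 fold change -0.22 ± 0.0381 SE, adjusted p = 3.05e-05). RAD51D shares 905 of 11304 exon bases and the strand with a readthrough gene, RAD51L3-RFFL, with a mean of 180.0 counts against 477.5 for RAD51D. Within a library, the ratio of RAD51D to RAD51C was 0.789, 0.989 and 0.880 in siNC and 1.81, 1.59 and 1.49 in siNAT10. The groups of these ratios did not overlap. Such count ratios are compared only between libraries, since the genes differ in length.

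XRCC3, the other partner of RAD51C, was at 59.9 ± 1.85 CPM in siNC and 62.2 ± 2.15 CPM in siNAT10 (SD, n = 3) and did not pass (0.06, adjusted p = 0.309). It shares 5756 of 7507 exon bases with KLC1 on the other strand, which had a mean of 4359 counts against 1300.5 for XRCC3 and was higher (0.23), so the counts of XRCC3 cannot be taken as its own without strand. The ratio of XRCC3 to RAD51C was 2.75 ± 0.197 in siNC and 4.05 ± 0.494 in siNAT10 without overlap. RAD51B had 1.05 ± 0.285 and 0.988 ± 0.104 CPM, and its interval ran from -0.64 to 0.43 on the log2 scale, so changes within it are not excluded. RAD54L, a motor protein of recombination that moves along the duplex, was at 22.9 ± 1.31 CPM in siNC and 24.8 ± 0.724 CPM in siNAT10 (SD, n = 3) and did not pass (0.12, adjusted p = 0.107), except without siNC replicate 3 (adjusted p = 0.0496) or with library totals (0.0362). It shares 806 of 3212 exon bases with LRRC41 on the other strand, which was not called (0.09).

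The promoters of the members were searched for short motifs on both strands, in the RefSeq table of 250 bases before to 50 after the start on GRCh38.p14, in which 40 of the 43 genes matched. FANCI, NBN and RMI2 had no entry. RAD51C and XRCC2 were the members whose promoter held the cyclic AMP response element TGACGTCA, 2 of 40 (5.0%), against 3.63% of 11762 tested genes and 2.25% of all 27305 genes with an entry. They are shown with 25 bases on each side, the element in capitals, because both genes were lower in siNAT10. The element begins 30 bases before the start that the second RAD51C entry gives and 135 bases before that of XRCC2. A match is a description, not a site or a cause.
RAD51C, chr17:58692547-58692604, plus strand: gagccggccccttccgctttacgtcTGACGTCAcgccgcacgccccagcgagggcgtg
XRCC2, chr7:152676244-152676301, minus strand: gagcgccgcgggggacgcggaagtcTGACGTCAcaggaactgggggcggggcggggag

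Other motifs were the E2F octamers TTTCCCGC, TTTGGCGC, TTTCGCGC and TTTGCCGC, the heptamer CCGGAAG of ETS factors, the pentamer CCAAT, and the cell cycle elements, which read TTTGAA in the usual form or else TTCGAA. The E2F octamers were in 7 of 40 members (17.5%), against 6.5% of tested genes and 3.99% of all genes. These members were FANCA, FANCC, FANCD2, XRCC2, RMI1, REV3L and POLI, of which FANCA was higher, XRCC2 lower and 5 not called. The ETS heptamer was in 12 members (30.0%), against 21.3% and 12.2%. Of the members with an entry, it was in 4 of 11 higher, 2 of 8 lower and 6 of 21 not called. CCAAT was in 15 (37.5%), against 42.5% and 39.7%, and the cell cycle elements in 4 (10%), against 15.2% and 19.5%. The difference between these shares was not tested.

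End resection turns a broken end into a single strand. RAD50, the ATPase that tethers ends in the complex with MRE11 and NBN, was at 64.2, 58.8 and 61.995 CPM in the siNC libraries and 92.8, 98.2 and 101 CPM in the siNAT10 libraries. The siNAT10 libraries were 158% of the siNC mean and far above all siNC libraries (log2 fold change 0.66 ± 0.0422 SE, adjusted p = 2.59e-13). RBBP8, the cofactor that starts the cutting by MRE11, was at 89.4, 84.4 and 87.02 CPM in the siNC libraries and 97.2, 104 and 111 CPM in the siNAT10 libraries. All siNAT10 libraries were higher (log2 fold change 0.26 ± 0.0423 SE, adjusted p = 8.21e-06). NBN, which brings the ATM kinase to the complex, was at 125, 124 and 127 CPM in the siNC libraries and 128, 132 and 133 CPM in the siNAT10 libraries. Its siNAT10 libraries were slightly above its siNC libraries without passing (log2 fold change 0.06 ± 0.0343 SE, adjusted p = 0.155), and it passed with library totals (adjusted p = 0.0188). MRE11, the nuclease, was at 63.7 ± 2.60 CPM in siNC and 64.2 ± 0.923 CPM in siNAT10 (SD, n = 3) and did not pass (0.01, adjusted p = 0.859). Its interval ran from -0.07 to 0.10 on the log2 scale.

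RAD50, MRE11 and NBN act as a single complex, and the count ratios of their genes within a library were compared. RAD50 to MRE11 was 0.964, 0.957 and 0.981 in siNC and 1.43, 1.53 and 1.60 in siNAT10. RAD50 to NBN was 0.511, 0.473 and 0.488 in siNC and 0.725, 0.744 and 0.761 in siNAT10. NBN to MRE11 was 1.89, 2.03 and 2.01 in siNC and 1.97, 2.05 and 2.10 in siNAT10. The ratios with RAD50 were separate between the groups, and that of its partners to each other overlapped. RAD50 itself (chr5:132556019-132646069 on GRCh38) shares 7784 of 9771 exon bases and the strand with ENSG00000283782, a readthrough gene annotated over it. That gene was at 73.9, 69.3 and 72.85 CPM in siNC and 102.6, 107 and 110.5 CPM in siNAT10. It was higher in the same libraries as RAD50 (0.57 ± 0.0396 SE, adjusted p = 1.71e-12). How reads from the shared exons were assigned to these genes is not given in the sources used here. Both the level and the change of RAD50 are therefore uncertain. The counts of both genes moved the same way, but shared exons could give this whichever gene changed, so it is no separate support. The RAD50 promoter held 2 ETS heptamers on the strand of the gene, which begin 155 and 91 bases before the start and are in capitals here. Such a pair is not particular to RAD50. Counting both strands, the promoters of BLM, which was lower, and of SLX4, EME1 and POLI, which were not called, also held 2.
RAD50, chr5:132556797-132556917, plus strand: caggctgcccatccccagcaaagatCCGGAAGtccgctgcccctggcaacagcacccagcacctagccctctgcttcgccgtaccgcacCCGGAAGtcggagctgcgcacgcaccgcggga

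**Figure D3:**
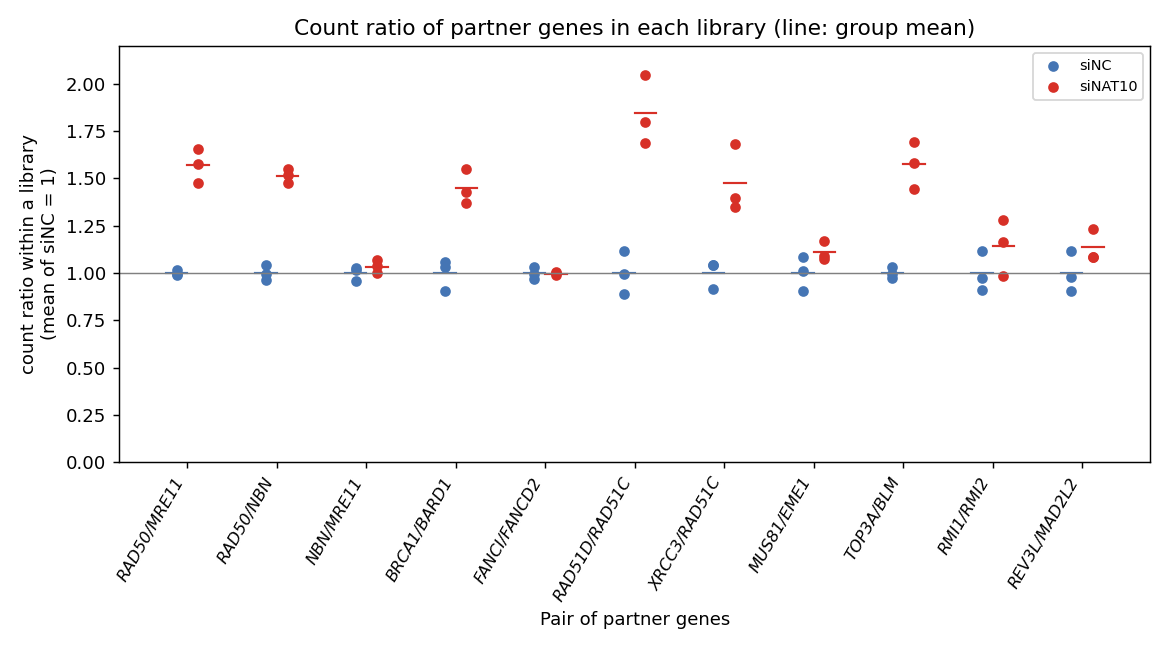
Each dot is the ratio of the counts of a pair of partner genes within a library over the mean ratio of the 3 siNC libraries, with a line at each group mean, siNC in blue and siNAT10 in red. The siNAT10 libraries stood above all siNC libraries for RAD50/MRE11, RAD50/NBN, BRCA1/BARD1, RAD51D/RAD51C, XRCC3/RAD51C and TOP3A/BLM, and the other 5 pairs overlapped. Each pair that stood apart held a gene called on its own, so its ratio is not a separate result. Of single tested genes 51.4% did not overlap, and no share was computed for other pairs of genes. The counts of XRCC3 and RAD50 are uncertain because they share exon bases with other genes.

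The BLM dissolvasome separates joined duplexes without exchange. BLM, its helicase, was at 22.7, 23.4 and 22.1 CPM in the siNC libraries and 16.1, 16.7 and 16.5 CPM in the siNAT10 libraries. All siNAT10 libraries were at a similar level below siNC, 72.3% of the mean (log2 fold change -0.47 ± 0.0604 SE, adjusted p = 2.37e-07). TOP3A, the topoisomerase that passes the strands, was at 23.9, 26.1 and 23.7 CPM in the siNC libraries and 25.2, 28.5 and 30.2 CPM in the siNAT10 libraries. The groups overlapped, since siNAT10 replicate 1 lay below siNC replicate 2 (log2 fold change 0.19 ± 0.0623 SE, adjusted p = 0.0146). The call was lost without siNC replicate 1 (adjusted p = 0.0703), siNC replicate 3 (0.0620), siNAT10 replicate 2 (0.0509) or siNAT10 replicate 3 (0.137), and by DESeq2 (0.0887). RMI2, a small subunit that stabilises the complex, was at 9.45, 8.22 and 8.62 CPM in the siNC libraries and 7.505, 7.41 and 8.95 CPM in the siNAT10 libraries. Its groups overlapped and the test was not passed (log2 fold change -0.13 ± 0.0977 SE, adjusted p = 0.307). RMI1, the subunit that joins TOP3A to BLM, was at 39.7 ± 1.82 CPM in siNC and 41.1 ± 2.30 CPM in siNAT10 (SD, n = 3) and did not pass (0.05, adjusted p = 0.5). The ratio of TOP3A to BLM counts was 1.05, 1.11 and 1.07 in siNC and 1.56, 1.71 and 1.83 in siNAT10. That ratio did not overlap between the groups, whereas RMI1 to RMI2, at 4.56 ± 0.476 and 5.21 ± 0.670, did.

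Translesion synthesis fills gaps opposite damaged bases with polymerases of low fidelity. Of 7 genes, 2 were higher, 2 were lower and 3 did not pass (57.1% called, against 44.1% of all tested genes and 60.9% of those at the level of the members). POLK, a polymerase that extends past bulky adducts, was at 41.8, 41.8 and 44.5 CPM in the siNC libraries and 48.4, 50.3 and 49.2 CPM in the siNAT10 libraries. It was higher in all 3 siNAT10 libraries (log2 fold change 0.21 ± 0.0449 SE, adjusted p = 3.66e-04). REV1, the scaffold on which the other translesion polymerases meet, was at 19.9, 21.6 and 22.02 CPM in the siNC libraries and 26.6, 24.3 and 25.7 CPM in the siNAT10 libraries. It was also higher in all of them (log2 fold change 0.27 ± 0.0589 SE, adjusted p = 4.17e-04). REV1 shares 852 of 7769 exon bases with EIF5B on the other strand, which was higher too (0.19) and had a mean of 13736.5 counts against 501, so its call is uncertain without strand. POLH, the polymerase that copies past Cisplatin links within a strand, was at 29.2, 31.9 and 28.2 CPM in the siNC libraries and 24.98, 25.5 and 25.7 CPM in the siNAT10 libraries. All 3 siNAT10 libraries were below the siNC libraries (log2 fold change -0.23 ± 0.055 SE, adjusted p = 0.00105). RAD18, the ligase that marks PCNA and so calls POLH, was at 23.5 ± 0.962 CPM in siNC and 20.3 ± 1.14 CPM in siNAT10 (SD, n = 3) and was lower in all siNAT10 libraries (log2 fold change -0.21 ± 0.0604 SE, adjusted p = 0.00644), though DESeq2 gave an adjusted p of 0.0579. REV3L, the catalytic subunit of polymerase zeta, was at 29.4 ± 1.36 CPM in siNC and 32.2 ± 2.08 CPM in siNAT10 (SD, n = 3) and did not pass (0.13, adjusted p = 0.0526). It did so without siNC replicate 3 (adjusted p = 0.0394), without siNAT10 replicate 1 (0.0111), with a replicate block (0.0437) and with library totals (0.0166). MAD2L2, its accessory subunit, and POLI did not pass either, with log2 fold changes of -0.06 and 0.11.

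When the test was set against a fold of 1.2 rather than against no change, 4 members passed (9.3%, against 14.6% of all tested genes). They were RAD50, which was higher, and RAD51C, BLM and UBE2T, which were lower, so the other 16 calls are of changes that may be smaller than that fold. Without the 10 members that share over 10% of their exon bases with another gene of at least 10 mean counts, 7 were higher (21.2%) and 9 lower (27.3%) of 33, against 21.8% and 22.3% of all tested genes, a choice made after seeing the data.

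The longest annotated 3′ UTR of each gene in GENCODE 29 on GRCh38 was searched for the heptamer GACTATC, for ACTATCA, which overlaps the former by 6 bases, and also for the unrelated CATATTC. These letters came from an earlier search of the fold changes of these same libraries, so a relation with the falls is built in and gives no independent support. At least 1 of them was in 8 of 43 members (18.6%), against 17.3% of the 13085 tested genes with an annotated 3′ UTR. Of the 9 lower members, 5 held one (55.6%, against 26.7% of the 3436 lower tested genes), namely RAD51C, BARD1, POLH, XRCC2 and RAD18. Of the 11 higher members, 0 held one, against 12.4% of the 3599 higher tested genes, and of the 23 members not called FAN1, MRE11 and POLI did. The median log2 fold change was -0.21 in the 8 members with a match and 0.08 in the 35 without, against -0.08 and 0.03 in all those tested genes. Without those 8 members 11 were higher (31.4%) and 4 lower (11.4%), namely BLM, UBE2T, FANCG and FANCI, against 29.1% and 23.3% of the tested genes without a match, a choice also made after seeing the data. Whether the matches bear on the falls was not tested. Matches of RAD51C, BARD1 and POLH, which are 3 of the 5 lower genes, are shown in capitals with 10 bases on each side. The base given is the first of the match, counted from the start of the 3′ UTR. Both matches of BARD1 are shown, and the first of the 2 overlapping ones in POLH. The RAD51C match, the only one of that gene, begins 243 bases past the end of RAD51C in the deposited table, so it lies outside the gene as counted, while the other matches of the members lie inside theirs.
RAD51C, base 352 of 1389, chr17:58734574-58734580, plus strand: agaaacatatCATATTCttattgtgtt
BARD1, base 695 of 3030, chr2:214727975-214727981, minus strand: tttgcttgtaACTATCAatttgtaact
BARD1, base 2798 of 3030, chr2:214725872-214725878, minus strand: atgcattaatCATATTCtaaacgttca
POLH, base 638 of 1929, chr6:43614369-43614375, plus strand: agaacacatgGACTATCattttgcatt

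The members of each direction were described by transcript length. The longest coding transcript had a median of 5451 bases in the 11 higher members, 3540 bases in the 9 lower members and 3420 bases in the 23 not called. The ranges overlapped, from 2392 to 11986 bases in the higher and from 908 to 5886 bases in the lower, and the difference was not tested. Across the 43 members the Spearman correlation of log2 fold change with that length was 0.310, and across the 13198 tested genes with a coding transcript it was 0.147. With the deposited length, which covers every annotated exon, it was 0.0210 in the members and 0.177 in those genes, so the value for the members depends on the length used. Both are descriptions across genes, which share the same 6 libraries and are not independent. With the GC content of the transcript the correlation was 0.0285 in the members and 0.0503 in the tested coding genes, and with the mean CPM it was 0.0358 in the members.

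The members were put in order of level per length, as mean CPM per kilobase over the 6 libraries. By the longest coding transcript, UBE2T had the highest level of the 43, at 83.6 CPM per kb, followed by RBBP8 (29.005), XRCC2 (28.2), NBN (27.5), FANCI (24.3) and FANCL (24.002). In siNC alone the order after UBE2T was XRCC2 (30.4), NBN (26.9) and RBBP8 (26.4), and in siNAT10 alone RBBP8 (31.6), NBN (28.1) and XRCC2 (26.1). The lowest levels on this scale were those of RAD51B (0.393), FANCF (1.17), POLI (1.34) and BARD1 (1.99). In siNC alone RAD51D (1.94) lay below BARD1 (2.21). By the deposited length UBE2T (39.3), RBBP8 (18.8) and XRCC2 (13.4) were again the top of the order, while FANCL fell from rank 6 to rank 39. Of the 10 members with the highest level by the deposited length, 6 were among the 10 highest by the transcript. The order below UBE2T, RBBP8 and XRCC2 thus depended on the length used.

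**Figure D4:**
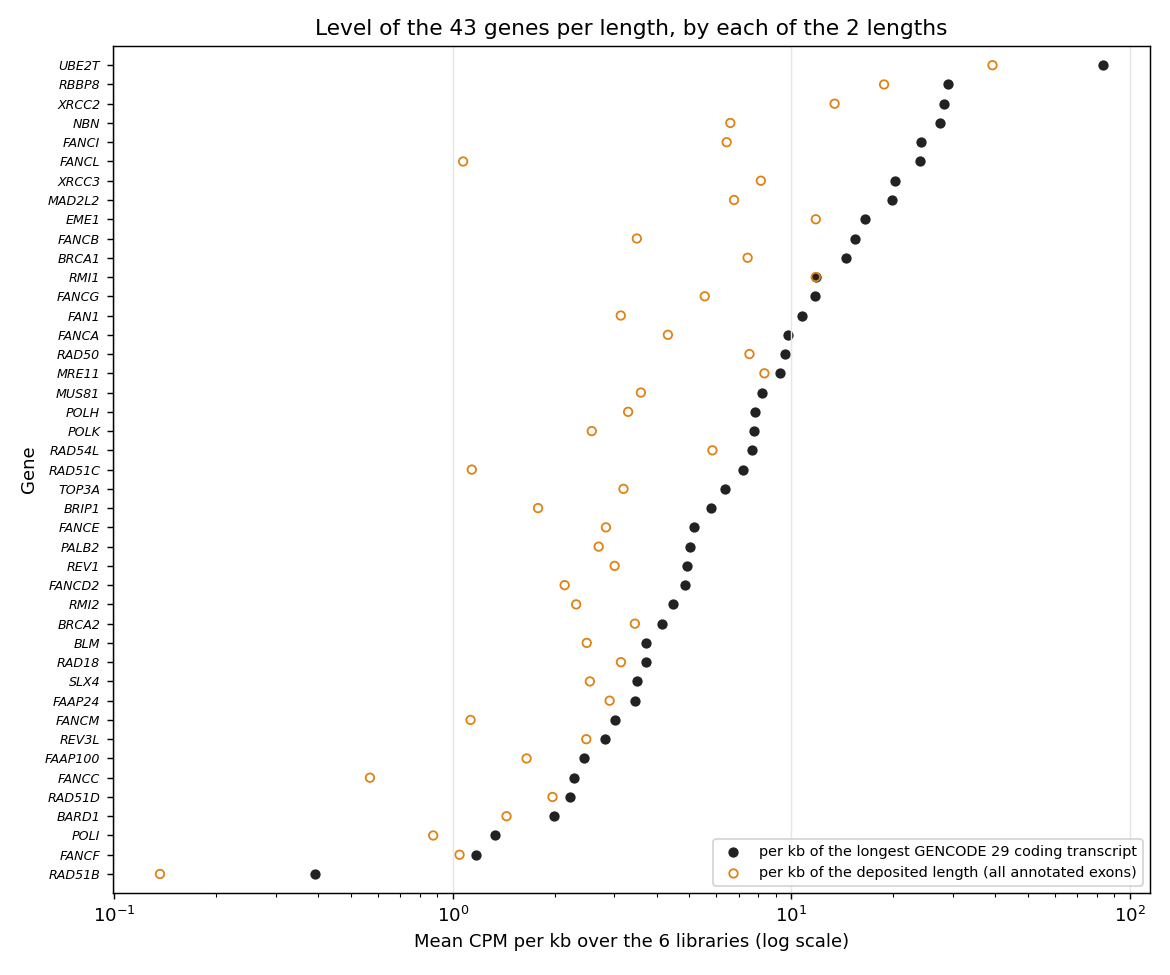
The horizontal axis is the mean CPM per kilobase over the 6 libraries on a log scale and each row is a gene, with filled dots for the longest coding transcript of GENCODE 29 and open dots for the deposited length. UBE2T is at the top by both lengths (83.6 and 39.3) and RAD51B at the bottom (0.393 and 0.136).

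Other genes of these pathways were listed with earlier results of these data known, so their shares describe them and are not a neutral measure for the members. Of 20 further crosslink repair genes, 1 was higher (5%) and 10 were lower (50%), with a median log2 fold change of -0.15. USP1, which removes ubiquitin from FANCD2, was lower (-0.46, adjusted p = 8.44e-12), as were GEN1, which cuts recombination junctions (-0.44, adjusted p = 2.35e-08), and ERCC1, a subunit of the nuclease that unhooks crosslinks (-0.27, adjusted p = 1.38e-07). The gene that was higher, SLX4IP, had the largest change in size of these repair lists and passed a log2 fold change of 1 (1.37, adjusted p = 3.20e-06), at a low level of 0.903, 0.887 and 1.19 CPM in the siNC libraries and 2.18, 2.79 and 2.72 CPM in the siNAT10 libraries. Of 27 further recombination genes, 7 were higher (25.9%) and 10 lower (37.0%), with a median of 0.00. The ATM kinase was higher (0.48, adjusted p = 3.83e-10) and MND1 and EXO1 were lower (-0.56 and -0.37). Of 13 further genes of translesion synthesis and damage tolerance, 2 were higher (15.4%) and 5 lower (38.5%, median 0.00), among the latter PCNA, the clamp that RAD18 marks (-0.28, adjusted p = 9.14e-08), and SPRTN (-0.37, adjusted p = 1.18e-06). Of 12 end joining genes, 6 were higher (50%) and 3 lower (25%, median 0.16), with TP53BP1 (0.35, adjusted p = 2.02e-09) and PRKDC (0.31, adjusted p = 4.13e-09) among the higher and RIF1 (-0.26, adjusted p = 5.04e-07) and LIG4 (-0.41, adjusted p = 6.32e-07) among the lower. Of 15 damage checkpoint genes, 2 were higher (13.3%) and 6 lower (40%, median -0.09), with CHEK1 lower (-0.30, adjusted p = 5.60e-06) and ATR slightly higher (0.11, adjusted p = 0.0337). Taking these 87 genes as 1 list, 18 were higher (20.7%) and 34 lower (39.1%), against 21.8% and 22.3% of all tested genes, and 31.6% and 29.3% of those at the level of the members.

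Many of the members are made most in dividing cells, so cell cycle genes were read beside them. Of 18 S phase genes, 3 were higher (16.7%) and 6 lower (33.3%, median 0.01). RRM2 and CDT1 were lower (-0.73 and -0.57), and MCM5 was higher (0.52). Of 16 G2/M genes, 2 were higher (12.5%) and 11 lower (68.75%, median -0.22), against 21.8% and 22.3% of all tested genes, with CCNB1 (-0.43, adjusted p = 1.30e-11), CDK1 (-0.46, adjusted p = 2.28e-11) and MKI67 (-0.17, adjusted p = 1.35e-04) lower. The share of dividing cells was not measured, and its part in the changes of the members was not tested.

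**Figure D5:**
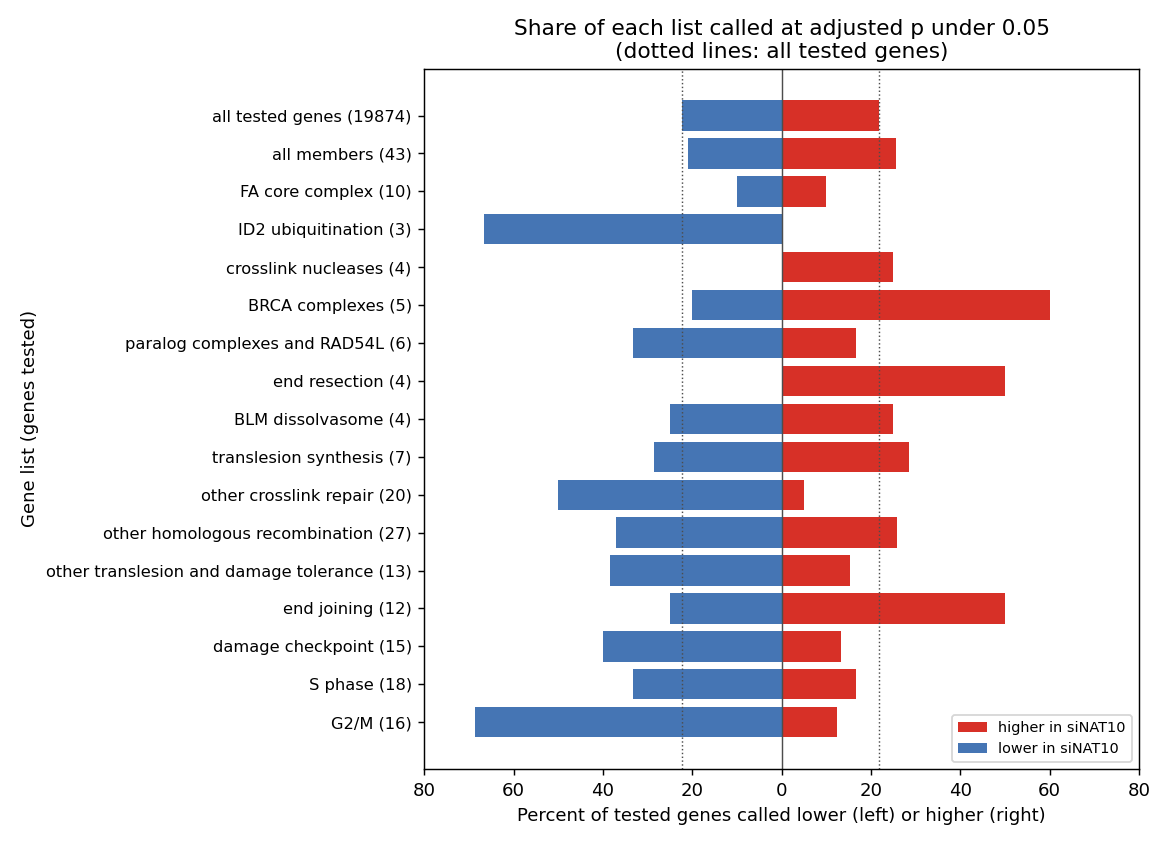
Bars give the percent of the tested genes of each list called higher (red, right) or lower (blue, left) in siNAT10 at an adjusted p under 0.05, with the number of genes in brackets and dotted lines at the shares of all tested genes, 21.8% and 22.3%. The members as a whole, at 25.6% and 20.9%, stood near the dotted lines, and the role groups hold only 3 to 10 genes each.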

How the data were processed

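The authors sequenced stranded mRNA libraries of Cisplatin-treated HK-2 cells, whose primers carried random bases as molecular identifiers. Per the submitters' processing notes, reads went through Trimmomatic 0.36, STAR 2.5.3a and featureCounts of Subread 1.5.1 on GRCh38, and edgeR 3.12.1 was used. The deposited values are whole-number counts per gene without normalization, with positions and gene lengths. According to the paper the identifiers serve to correct for duplicate reads, but whether such reads were merged before the deposited counts were made is not stated. The strand setting and the annotation release are not given in the sources used here. Unmerged copies would count a molecule more than once, and reads of overlapping genes on opposite strands can be told apart only if strand was used.

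Groups and replicate numbers came from the labels, 3 libraries per group, and all 6 libraries were used. In R 4.3.3 with edgeR 4.0.16, filterByExpr (minimum count 10, minimum total 15) kept 19874 of 62754 genes, which held 99.8% of the counts of each library. TMM gave the scaled library sizes, and the comparison of siNAT10 with siNC used glmQLFit and glmQLFTest, with Benjamini-Hochberg adjustment over the tested genes and calls at an adjusted p of 0.05. CPM values use the scaled sizes. The common biological coefficient of variation was 3.00%. Chi-square per gene was 1.74 to 2.55 between libraries of a group and 18.6 to 23.0 across groups, so none was a copy of another. An exact permutation test of 3 against 3 cannot go below 0.10, and no such test was used for single genes. Each standard error was the log2 fold change over the root of its F.

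Genes named were NAT10, the 43 members, and, of the other lists, those with 1 of the 3 smallest p-values in either direction or best known in their list (ATM, ATR, CHEK1, PCNA, MKI67), except for a withheld item that is not reported here. Values per library are given for up to 3 members of a role with the smallest adjusted p. The members and lists were chosen with earlier results of these data known. Overlaps, transcript lengths and 3′ UTRs are from GENCODE 29, in which 92.8% of the genes of the table were found, and promoters from RefSeq. The alternatives were RLE, upper quartile and library size scaling, no filter, filters of at least 50 or 10 counts in 3 libraries, a block for the replicate number, each library left out in turn, DESeq2 1.42.0, limma 3.58.1 voom, glmTreat against a fold of 1.2, and a log2 fold change over 1. Programs were tested on simulated data. Plots used Python 3.11.15 and matplotlib 3.10.9.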

Additional observations from a re-analysis of the deposited data

How the results depend on the processing

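The members called were 17 to 23 under every other scaling, filter, left-out library and test against no change, or 39.5% to 53.5% of those tested, and those in all of these 15 settings were 16, 10 higher and 6 lower. Of the genes tested in the main comparison, the same settings called 31.8% (DESeq2) to 55.3% (at least 50 counts, over those that passed it). Against a fold of 1.2, glmTreat called 2910 of all genes (14.6%) and 4 members (9.3%), and a log2 fold change over 1 left 464 genes and 0 members, which follows from the small size of the changes. With a single library left out, the genes called ranged from 7822 to 8168, the members called from 18 to 21 and the log2 fold change of NAT10 from -0.85 to -0.80. Over all 16 settings NAT10 ranged from -0.85 to -0.79. Genes near 0 that were never called changed sign when a library was left out. FANCB then ranged from -0.0146 to 0.0213, FANCL from -0.0391 to 0.0516, FAAP100 from -0.0379 to 0.130, RAD51B from -0.312 to 0.0496, MRE11 from -0.0210 to 0.0405 and MAD2L2 from -0.111 to 0.0155.

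With the replicate block 8526 genes and 21 members were called, all 20 of the main comparison and REV3L (adjusted p = 0.0437), and NAT10 was at -0.83. The labels do not say whether the numbers pair the libraries. Deviations from the group mean in libraries of the same number correlated at 0.00808, 0.0639 and -0.205 across genes. Not every library correlated best with its own number. Deviations from a mean of only 3 libraries are not independent, so these values cannot decide the question. Library totals called 23 members, adding FAAP24, NBN, RAD54L, REV3L and SLX4 and losing FANCG and FANCI. Members with few counts, such as RAD51B and FANCF, had wide intervals (-0.64 to 0.43 and -0.04 to 0.57), so many of the smaller changes called in other members are not excluded in them. The strand setting is not known, which bears on members such as XRCC3, RAD54L, FANCA, FANCL, REV1, MUS81 and EME1. Changes in RNA do not give changes in protein.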
